A study of Homo sapiens with 33 samples.

Results

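The comparison asked which transcripts separate the primary from the later response to all-trans retinoic acid (RA). The cells were THP-1, an established line derived from a monocytic leukaemia. The members were chosen by the labelled RA exposure, and 9 of the 33 arrays were compared. The early group held 2 wells harvested 2 h and 2 wells harvested 6 h after 20 nM RA. The late group held 3 wells harvested at 16 h, and 2 wells that received RA a second time at 16 h and were harvested at 40 h. Each array measured total RNA from a separate culture well of the same line, so p-values measure the spread between wells. All 9 arrays carry the label of the study's second experiment, and the 2 arrays at 40 h also carry that of the first. No vehicle array entered the contrast. For orientation, 8 ethanol vehicle arrays of the second experiment are shown, labelled as 0 h of RA. Of these, 5 were harvested at 16 h and 3, labelled with both experiments, at 40 h. No vehicle well harvested at 2 h or 6 h was among the samples analysed. Length of RA exposure, time in culture and, for the 40 h wells, the second addition of RA cannot be told apart in this contrast.

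RA enters the nucleus and binds RA receptors, which sit with retinoid X receptors on paired half-sites in DNA and switch from repressing to activating nearby genes. Genes with such sites can respond within hours without new protein synthesis, and their products then act on further genes. In myeloid leukaemia cells RA is known for slowing division and moving cells towards a more mature phenotype. In a lysate of a whole culture, fewer cells carrying a transcript and less transcript per cell cannot be told apart.

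Signals are in units of the Affymetrix operating software, and a difference is the mean of the 16 h and 40 h log2 means minus the mean of the 2 h and 6 h log2 means, ± its standard error (n = 5 late and 4 early arrays). Adjusted p-values are from limma with Benjamini-Hochberg (BH) adjustment over 12508 genes, and a gene was called at an adjusted p under 0.05. Array medians were 18.9 to 25.6 units in the early and 23.2 to 35.0 units in the late arrays. The 3' to 5' signal ratios of the control transcripts, a sign of RNA quality, differed between the groups. The log2 ACTB ratio was 0.675 ± 0.270 in late (SD, n = 5) and 0.218 ± 0.0937 in early arrays (SD, n = 4), and the GAPDH ratio was 0.482 ± 0.176 against 0.145 ± 0.0948. The groups did not overlap in either ratio (two-sided exact permutation p = 0.0159, the smallest that 5 against 4 arrays allow, BH adjusted p = 0.0317 over 4 measures). Differences also moved with the signal level. In the 93 genes with a mean of at least 10000 units the median difference was 0.69, with 53 called higher, against a median of 0.02 over all genes. After quantile normalization that median was 0.01, with 7 called higher. Dim genes moved too: the median was 0.25 in 2392 genes under 50 units and 0.11 in 1688 genes from 50 to 100 units. After quantile normalization these medians were -0.05 and -0.02. From 100 to 5000 units the medians on the main scale lay between -0.06 and -0.01. Probe sets at the lowest value of an array numbered 1473 to 2964 in the early and 252 to 2308 in the late arrays. Markers of the line were present. The 26 monocyte and macrophage markers on the array summed to 11990 to 14540 units in the early and 15440 to 17160 units in the late arrays. The 17 lymphocyte markers summed to 482 to 641 and 540 to 872 units, and the brightest, NKG7, averaged 208 units. The 11 erythroid and megakaryocyte markers summed to 370 to 502 and 483 to 725 units, and the 14 epithelial and fibroblast markers to 185 to 424 and 290 to 403 units.

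**Figure D1:**
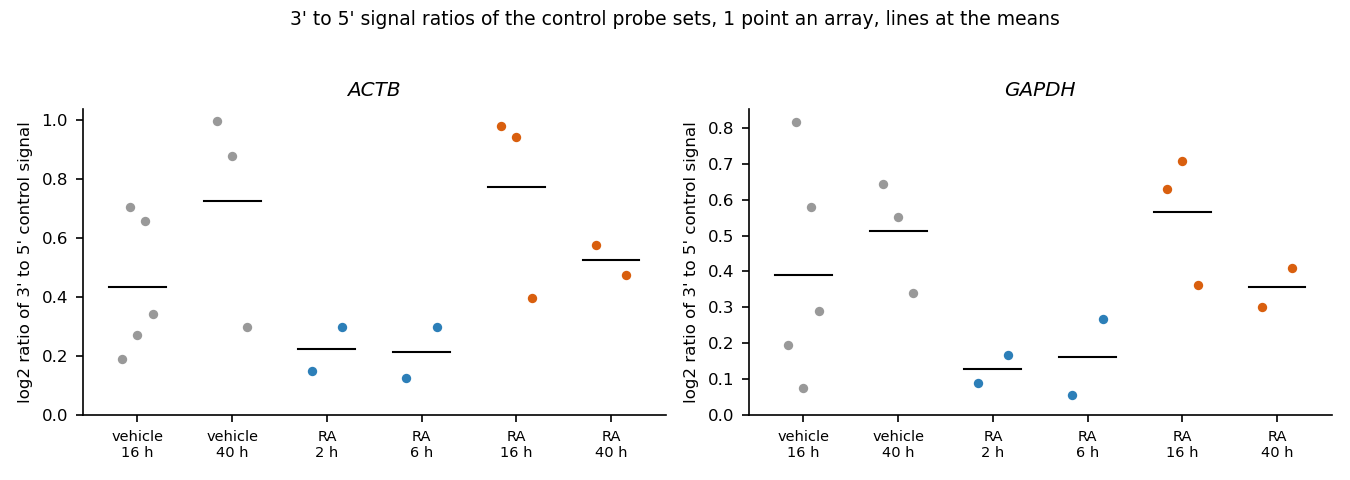
The log2 ratio of 3' to 5' control signal is plotted for ACTB and GAPDH in each of the 17 vehicle and RA arrays, with a point for each array and a line at each group mean. Late RA arrays, from 0.397 to 0.98 for ACTB, lie above all early RA arrays, from 0.126 to 0.299, and vehicle arrays run from 0.19 to 0.996.

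In the late arrays 947 genes were higher (7.57% of those tested) and 886 were lower (7.08%) than in the early arrays, 14.7% in all. The largest changes were rises. A change of at least 2-fold was called for 181 rises (1.45%) and 31 falls (0.248%). In 663 of the 947 higher genes every late array lay above every early array, and in 672 of the 886 lower genes every late array lay below. Over all genes tested, 915 (7.32%) had all late arrays above and 934 (7.47%) had all late arrays below the early arrays. On the values as deposited, centred on the array median, the split became 232 higher and 2955 lower, because that scale moves the median of all genes to -0.34. Named rises no longer called on it included CD1D, HIC1, FGR, POR, LRG1, MYC, KLF6, ID2, CSF1R, BATF2, HLA-E, CD74, CTSB and CTSS, described below. After quantile normalization it was 923 and 848, and 819 higher and 720 lower genes were shared with the main scale. In a fit that also took in the 8 vehicle arrays, 635 were higher and 664 lower. Its differences are the same by design, and only the estimate of their spread changes. With the ACTB ratio of each array as a covariate in that fit, an alternative added after the data were seen, 288 were higher and 249 lower. The 24 genes of largest change described below were called in that fit too. Leaving out single wells gave 532 to 944 higher and 439 to 948 lower genes. Counts moved by more than 1.5 times without the second 2 h well (560 higher and 455 lower), the second 6 h well (532 and 439), the first 40 h well (602 and 536), the second 40 h well (541 and 586) or, for lower genes, the first 2 h well (524).

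**Figure D2:**
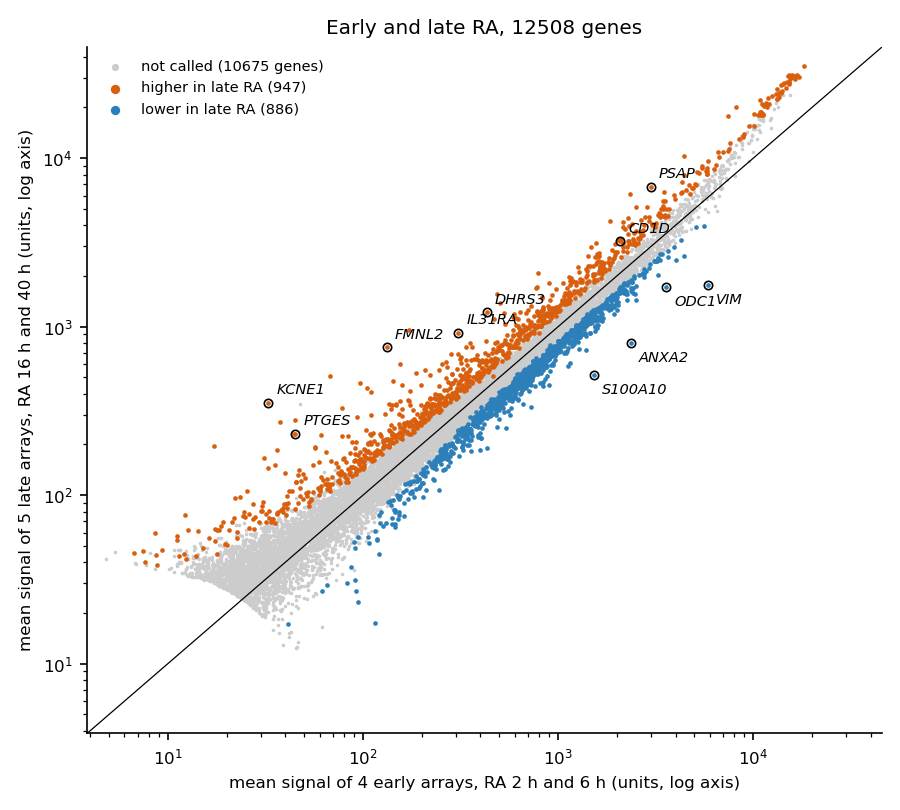
Each point is a gene, with its mean signal in 4 early RA arrays on the x axis and in 5 late RA arrays on the y axis (units, both axes log), and the line marks equal signal. Orange points are 947 genes called higher and blue points 886 genes called lower in late RA, and named genes are ringed. Points above 10000 units lie mostly above the line.

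Vehicle arrays placed these changes. Of the 947 higher genes, 73 were above every vehicle array in the early and in the late arrays, and 288 overlapped vehicle early and lay above it late. A further 544 overlapped vehicle at both stages, and 39 were below vehicle early and within its range late. Of the 886 lower genes, 219 overlapped vehicle early and fell below every vehicle array late, and 35 were above vehicle early and within its range late. Over all genes tested, 2.07% had early arrays above vehicle and 4.58% had late arrays above it, and 1.26% and 2.95% had them below. The vehicle arrays were harvested at 16 h and 40 h, so they are no time match for the early arrays. These classes are descriptions.

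Classes were defined from the same arrays and calls, so the median courses below follow in part from that choice. Over all 12508 genes the median was -0.017 against vehicle at 2 h, and the following steps were -0.001, 0.014 and 0.021. The 73 genes that were above vehicle at both stages differed in course, and only their medians are given here. The median log2 level was 0.85 above vehicle at 2 h, rose a further 0.65 by 6 h, 0.22 by 16 h and 0.23 by 40 h. Among the 288 genes that left the vehicle range late, the median stood 0.03 above vehicle at 2 h, and the following steps were 0.34, 0.47 and 0.14. Another group of 83 genes was above vehicle at both stages and was not called between late and early. Its median was 0.58 above vehicle at 2 h, rose by 0.34 to 6 h and fell by 0.21 to 16 h. STX11, a SNARE protein of secretory granules, was in this group at 336 units early and 270 late, against 56.7 in vehicle. IRF1, a transcription factor of the interferon system, was at 667 and 714 units, against 231. STOX2 (220 and 189 units, against 22.8) and MAFF, a small MAF transcription factor (204 and 235 units, against 38.2), belonged to it too. Among the 73, the growth factor HBEGF averaged 925 units early and 1171 late against 121.5 in vehicle. THBD, which binds thrombin, averaged 2648 and 3489 units against 507. SLC2A5, a fructose transporter, averaged 3499 and 6336 units against 906. These 7 genes were chosen after their values were seen.

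CD1D presents lipid antigens to T cells, and its transcript was near its final level by 6 h. Its signals were 1227 and 1276 units at 2 h and 3055 and 2788 at 6 h. They were 3042, 3003 and 3117 at 16 h, 3490 and 3376 at 40 h, and 96.8 to 172 in vehicle. The late and early arrays overlapped, and the difference of 0.76 ± 0.08 (adjusted p = 6.1e-05) rested on the 2 h wells. From 2 h to 6 h CD1D rose by 1.22 ± 0.12 (adjusted p = 0.000155), and from 6 h to 16 h the difference was 0.07 ± 0.11 (adjusted p = 0.79). HIC1, a transcriptional repressor, behaved alike at a lower level, with 141 and 107 units at 2 h and 237 and 313 at 6 h. At 16 h it stood at 227, 202 and 238 units and at 40 h at 334 and 336, and no vehicle array exceeded 27.4 units. Its difference of 0.58 ± 0.13 (adjusted p = 0.0115) was lost without the second 2 h well or the first 6 h well.

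FGR, a SRC family kinase of myeloid cells, read 303 and 342 units at 2 h, 931 and 962 at 6 h, and 873 to 1037 in the late arrays. POR, which passes electrons to cytochrome P450 enzymes, read 379 and 432, then 1117 and 1098, and 901 to 1191 units late. LRG1, a secreted leucine-rich glycoprotein, read 436 and 393, then 1076 and 989, and 838 to 1345 units late. All 3 were called higher in the late arrays (adjusted p from 9.68e-05 to 0.000306). In each the 6 h signals lay within the range of the late ones. Set against the 6 h wells alone, FGR and POR were slightly lower late (-0.038 and -0.084). NRIP1, a corepressor that itself responds to RA, did not pass the test (0.05 ± 0.11, adjusted p = 0.829), at 725 to 1164 units early, 708 to 1150 late and 318 to 550 in vehicle.

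A second set continued to climb after 6 h. DHRS3 reduces retinaldehyde to retinol and so limits the supply of RA. Its signals were 167 and 163 units at 2 h and 602 and 788 at 6 h. At 16 h they were 1450, 1080 and 1176, and at 40 h 1170 and 1245, against 7.9 to 113 in vehicle. Every late array was above every early array, with a difference of 1.85 ± 0.11 (adjusted p = 4.63e-07). With the ACTB covariate the difference was 1.91 and no longer called (adjusted p = 0.0999). CD38, a cell surface enzyme that consumes NAD, read 392 and 461 units at 2 h, 1078 and 1178 at 6 h, and 1544 to 1932 late (1.33 ± 0.09, adjusted p = 6.1e-07). Vehicle arrays read 135 to 255 units. IL31RA, a cytokine receptor subunit, read 113 and 157, then 505 and 458, and 843 to 1095 units late (1.87 ± 0.12, adjusted p = 6.01e-07). NCF1, a cytosolic subunit of the phagocyte NADPH oxidase, read 1002 and 1028, then 2988 and 2369, and 3669 to 4679 units late (1.39 ± 0.10, adjusted p = 1.6e-06). In all 4 transcripts the 3 stages of 2 h, 6 h and late were fully separated and all stood above vehicle.

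FMNL2, a formin that builds actin filaments, differed from these in its start. It was at the vehicle level at 2 h, with 64.2 and 54.2 units against 27.3 to 90.1 in vehicle. It then read 204 and 207 units at 6 h, 574, 571 and 497 at 16 h, and 998 and 1130 at 40 h. The late minus early difference was 2.79 ± 0.11 (adjusted p = 6.2e-09), the smallest adjusted p of the 24 genes of largest change. KCNE1, a potassium channel subunit, gave the largest difference of these 24 (4.41 ± 0.64, adjusted p = 0.000512). It read 27.3 and 1.1 units at 2 h, 45.2 and 56.8 at 6 h, 218 to 299 at 16 h, and 429 and 563 at 40 h. Its value in the second 2 h well lies near the floor of 1 unit, so the size of the difference is uncertain. In a fit of 2 groups with the replicate number as a block, wells whose number occurred once did not inform the difference. These were the third 16 h well and both 40 h wells, so only the first and second 16 h wells were set against the early wells. In that fit 42 named genes were no longer called. Among them were KCNE1, SYT2, CYP27A1, IL31RA, DHRS3, CD38, NCF1, NDRG1, CD1D and HIC1 (adjusted p from 0.0603 to 0.727). Differences were 3.83 for KCNE1, 1.89 for DHRS3, 1.20 for CD38 and NCF1 and 0.66 for CD1D. SYT2, a calcium sensor of vesicle release, read 4.4 and 9.3, then 55.2 and 81.8, and 166.1 to 388.6 units late (3.73 ± 0.26). PTGES, which makes prostaglandin E2, read 20.9 and 12.2, then 82.4 and 64, and 150 to 318 units late (2.78 ± 0.22). CYP27A1, a sterol hydroxylase of mitochondria, read 87.7 and 12.7, then 123 and 162, and 355 to 577 units late (2.77 ± 0.39). TGM2, a transglutaminase long used as a marker of RA action, read 46.1 and 62.9, then 92.0 and 132.9, and 181 to 273 units late (1.52 ± 0.18, adjusted p = 0.000148). The other 2 TGM2 probe sets above the filter gave 0.07 and 0.17. The TGM2 call was lost in the fit that took in the vehicle arrays, without the covariate (1.52, adjusted p = 0.12) and with it (2.02, adjusted p = 0.144).

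For the other largest rises the step from 6 h to 16 h was the largest of the 3 steps. BCL2A1, a BCL2 family member that restrains apoptosis, read 26.5 and 42.3 units at 2 h, 52.3 and 57.8 at 6 h, 234 to 240 at 16 h and 361 and 324 at 40 h. Vehicle arrays read 20.6 to 50.5 units. Its difference was 2.73 ± 0.18 (adjusted p = 6.1e-07), and the step from 6 h to 16 h alone was 2.10 ± 0.24 (adjusted p = 0.000612). SPOCK1, a matrix proteoglycan, read 54.5 to 100.5 units early, 290 to 375 late and 51.0 to 94.9 in vehicle (2.13 ± 0.14). MMP2, a gelatinase, read 122 to 184 units early, 447 to 757 late and 55.0 to 130.5 in vehicle (2.01 ± 0.11). PTPRG, a receptor tyrosine phosphatase, read 76.7 to 160.6 units early and 325 to 542 late (2.12 ± 0.18), and its 3 other probe sets above the filter gave 0.28 to 2.17. PLAAT4, a phospholipase and acyltransferase first found as an RA-induced gene, read 38.4 to 78.2 units early and 196 to 262 late (1.99 ± 0.17). TP53INP2, which takes part in autophagy, read 102 to 117 units early and 343 to 528 late (1.91 ± 0.12). In these 6 genes early and late arrays did not overlap, and the early arrays overlapped the vehicle range. ITGAM, the CD11b subunit of the Mac-1 integrin, followed the same course at 484 to 591 units early and 1035 to 1459 late (1.21 ± 0.08, adjusted p = 8.26e-07). A second ITGAM probe set above the filter gave -0.69, so the ITGAM rise rests on the brighter probe set.

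**Figure D3:**
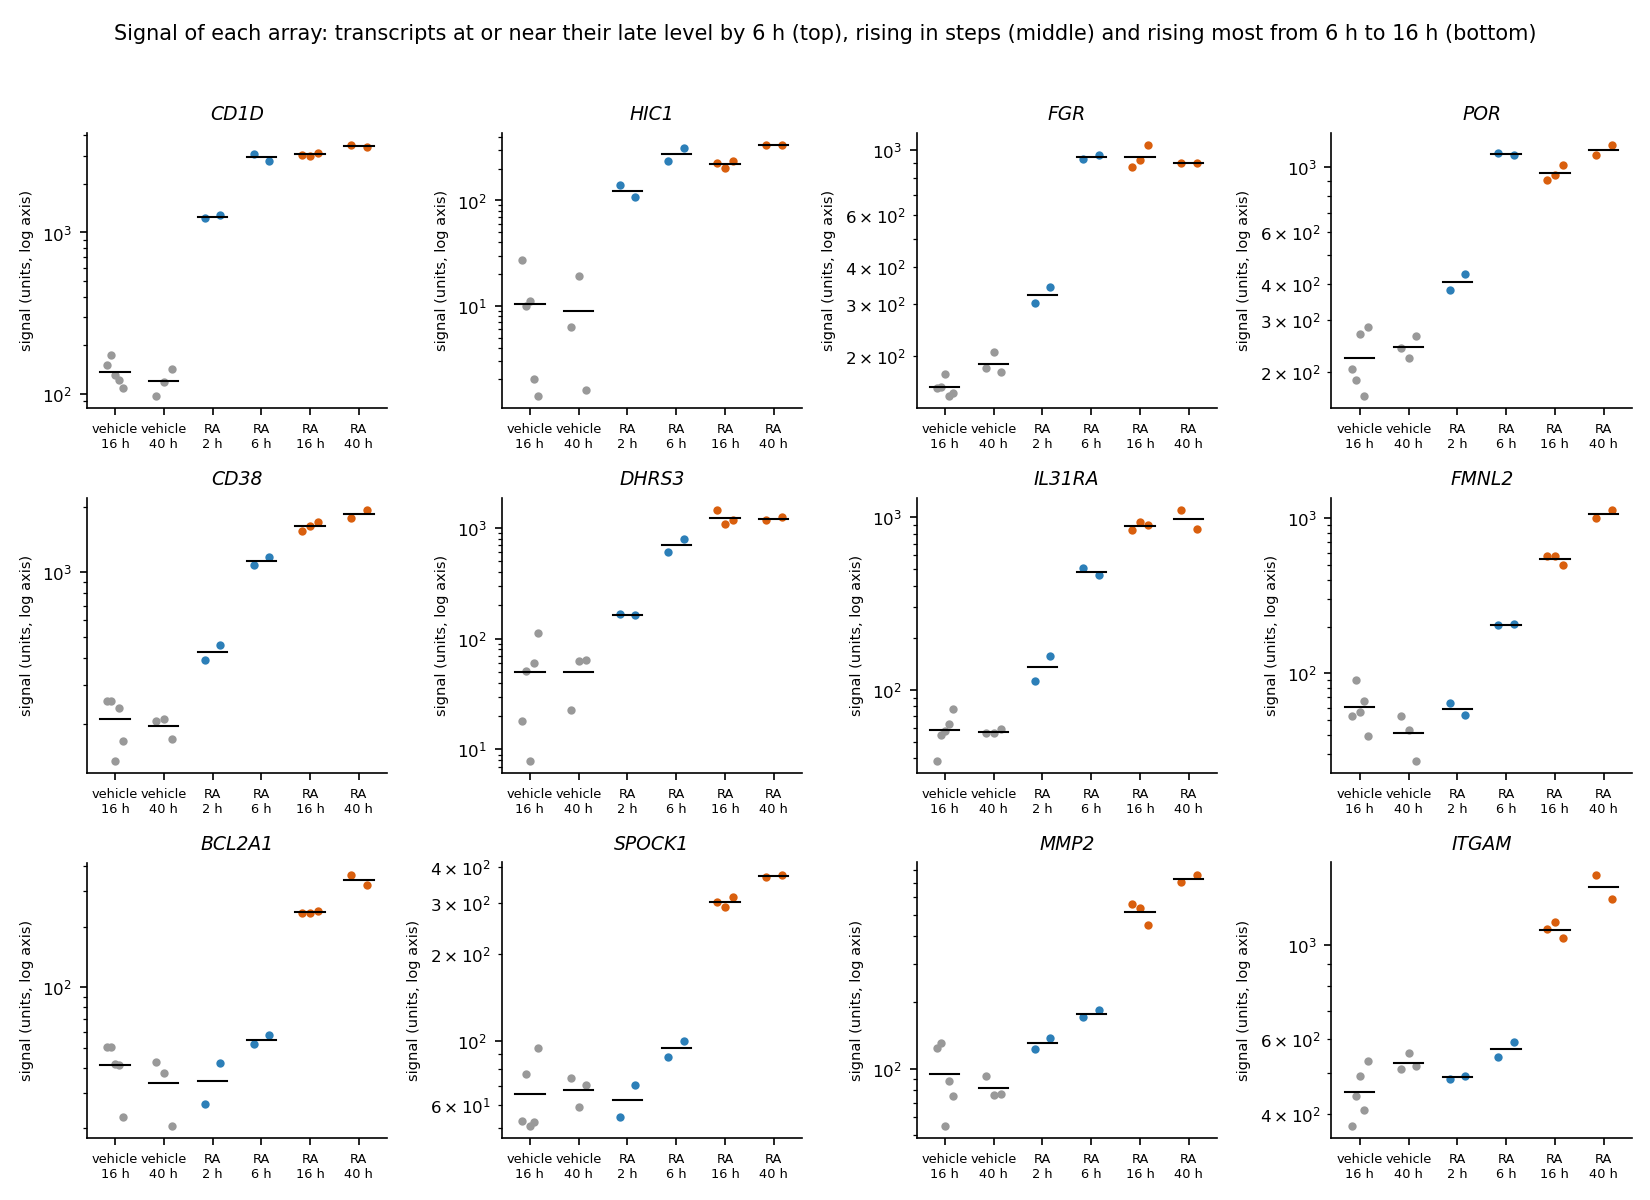
The signal of each array (units, log axis) is plotted for 12 genes in vehicle (grey), early RA (blue) and late RA (orange), with a line at each group mean. CD1D, HIC1, FGR and POR are at or near their late level by 6 h, CD38, DHRS3, IL31RA and FMNL2 climb in steps, and BCL2A1, SPOCK1, MMP2 and ITGAM rise mainly between 6 h and 16 h.

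Between adjacent times, 73 genes were higher and 9 lower at 6 h than at 2 h (0.584% and 0.0720% of those tested). Between 6 h and 16 h, 252 were higher and 335 lower (2.01% and 2.68%, 4.69% in all). Between 16 h and 40 h, 1 gene was higher and 0 were lower (0.00799% and 0%), although 1037 had an unadjusted p under 0.05. In vehicle, 40 h against 16 h, limma called 0 genes (0%), with 1003 at an unadjusted p under 0.05. Of the 947 genes higher late, 54 were also higher at 6 h than at 2 h and 232 were higher at 16 h than at 6 h. Of the 886 lower late, 2 and 301 were lower at those steps. The 16 h against 6 h counts rested most on the 6 h wells. They were 27 higher and 10 lower without the second 6 h well and 116 and 52 without the first, and 167 higher genes without either 40 h well. The 335 lower genes became 218 and 217 without the first and second 2 h wells. The 73 genes higher at 6 h than at 2 h became 37 and 42 without the first and second 6 h wells and 43 without the first 2 h well, and the 9 lower genes became 0 to 4 without any of the 2 h, 6 h and 40 h wells.

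Among genes called on all 3 scales with at least 200 units in the higher group, the largest rises from 2 h to 6 h were DHRS3 (2.06 ± 0.16), PRAM1, an adaptor of myeloid cells induced by RA (1.87 ± 0.23), IL31RA (1.85 ± 0.17) and FMNL2 (1.80 ± 0.16), with adjusted p from 4.81e-05 to 0.000814. In the fit that took in the vehicle arrays the DHRS3 step was no longer called (adjusted p = 0.659). From 6 h to 16 h the largest rises by the same rule were TMEFF2 (2.85 ± 0.65), the ribosomal protein transcript RPL27A (2.71 ± 0.55), BCL2A1 and CDC42SE1 (1.78 ± 0.28). Except for BCL2A1, these were carried most by 1 array. RPL27A read 2864 units in the first 16 h well, 907 and 410 in the other two and 307 and 316.5 at 40 h. CDC42SE1 read 3420 units there, against 1402 and 1405. That array had a log2 ACTB ratio of 0.943, and vehicle arrays ran as high as 4576 units for RPL27A and 5294 for CDC42SE1, in a well with a ratio of 0.706. The part of RNA quality in the TMEFF2, RPL27A and CDC42SE1 steps was not tested. TMEFF2 was no longer called without that 16 h well (adjusted p = 0.0539). All 3 steps were lost without the second 6 h well (adjusted p from 0.0843 to 0.287). Late minus early, the CDC42SE1 probe set used gave 1.34. The 3 other CDC42SE1 probe sets above the filter gave -1.42 to 1.37, 1 of them of opposite sign. The gene called between 16 h and 40 h was ITGA6, an integrin subunit. It read 249 and 292 units at 2 h and 776 and 854 at 6 h, read 465.6 to 516.6 at 16 h and stood at 966 and 980 at 40 h. The step from 6 h to 16 h was -0.71 ± 0.12 (adjusted p = 0.00845). The last step was 0.97 ± 0.12 (adjusted p = 0.0192), and it was lost on leaving out a 6 h well, a 40 h well or the second 16 h well (adjusted p from 0.0541 to 0.315).

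The largest falls were in abundant structural transcripts, and they too came after 6 h. VIM encodes the intermediate filament protein vimentin. It read 7358 and 5681 units at 2 h and 5662 and 4764 at 6 h. It read 1730, 2257 and 1959 units at 16 h, 1474 and 1422 at 40 h, and 5769 to 7206 in vehicle. The VIM difference was -1.78 ± 0.11 (adjusted p = 6.01e-07). S100A10 and ANXA2 encode partners that form the annexin A2 complex at the plasma membrane. S100A10 read 1294.3 to 1762 units early, 427 to 621 late and 1125 to 2051 in vehicle (-1.61 ± 0.10). ANXA2 read 2045 to 2674 units early, 717 to 864 late and 1790 to 2618 in vehicle (-1.57 ± 0.08). By the rule for steps, these 3 transcripts also led the falls from 6 h to 16 h, at -1.40 ± 0.15 for VIM, -1.25 ± 0.14 for S100A10 and -1.39 ± 0.11 for ANXA2. RMDN2, a microtubule-associated protein, came next (-1.22 ± 0.21, adjusted p = 0.00845, lost without the second 6 h well). It was higher at 6 h (266 and 396 units) than at 2 h (151 and 178) or 16 h (125 to 168 units), and its late minus early difference did not pass (-0.33 ± 0.15, adjusted p = 0.18).

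Further falls were in ODC1, which starts polyamine synthesis (3119 to 3848 units early, 1476.5 to 1911 late, -1.06 ± 0.10), and the stress kinase MAP3K20 (335 to 529 and 164 to 271 units, -1.21 ± 0.14). DEPTOR, an inhibitor of mTOR, read 340 to 446 units early and 140 to 240 late (-1.18 ± 0.12). TGM5, an epidermal transglutaminase, fell by 1.16 ± 0.11, the protease CTSV by 1.2 ± 0.18, LINC01088 by 1.11 ± 0.09, the noncoding CCDC26 by 1.03 ± 0.13 and WDR90 by 1.02 ± 0.18. S100A8, a subunit of the calprotectin of monocytes and neutrophils, read 1045 to 1239 units early and 463 to 718 late (-1.0 ± 0.09). No early array overlapped a late array in any of these 12 genes, VIM, S100A10 and ANXA2 included. For ODC1 the vehicle arrays spanned 1746 to 3848 units and so reached down to the late level. The lowest vehicle array also lay below the highest late array for TGM5 (387.2 against 394.5 units), CTSV (127.4 against 131.5) and WDR90 (125.8 against 128.9). When all probe sets of a gene were averaged, dim ones included, the VIM, S100A10, DEPTOR and LINC01088 falls shrank and were no longer called (adjusted p from 0.0927 to 0.689), and WDR90 and S100A8 turned sign (0.23 and 0.27, neither called). None of these 6 genes had another probe set above the filter. The same averaging ended the calls of the rises FMNL2 (1.38, adjusted p = 0.0652) and MMP2 (0.83, adjusted p = 0.267).

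Transcripts of cell division fell as a group. Of 52 cell cycle and DNA replication genes tested, 39 were lower late and none was higher, with a median difference of -0.42, against 7.08% lower and a median of 0.02 over all genes. After quantile normalization 39 were lower and 1 higher, against 848 lower and 923 higher of all 12508 genes. With the ACTB covariate 20 were lower, against 249 of all 12508 genes. At the step from 6 h to 16 h 13 were called lower (2.68% over all genes), and from 2 h to 6 h none was called. In 22 of the 52 all late arrays lay below all vehicle arrays (2.95% over all genes). In none did the early arrays (1.26% over all genes). CCNE2, a cyclin that drives entry into DNA synthesis, read 1201 and 1192 units at 2 h and 1359 and 1375 at 6 h. It then read 699 to 718 units at 16 h and 733 and 816 at 40 h, against 860 to 1224 in vehicle (-0.79 ± 0.08, adjusted p = 2.35e-05). E2F8, a repressor of the E2F family, read 509 to 596 units early and 244 to 372 late (-0.79 ± 0.11). MCM7 and MCM2, subunits of the replicative helicase, read 2195 to 2697 and 2306 to 2482 units early and 1332 to 1768 and 1440 to 1809 late (-0.66 ± 0.10 and -0.61 ± 0.09). In all 4 the early arrays lay within or above the vehicle range and the late arrays below it.

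**Figure D4:**
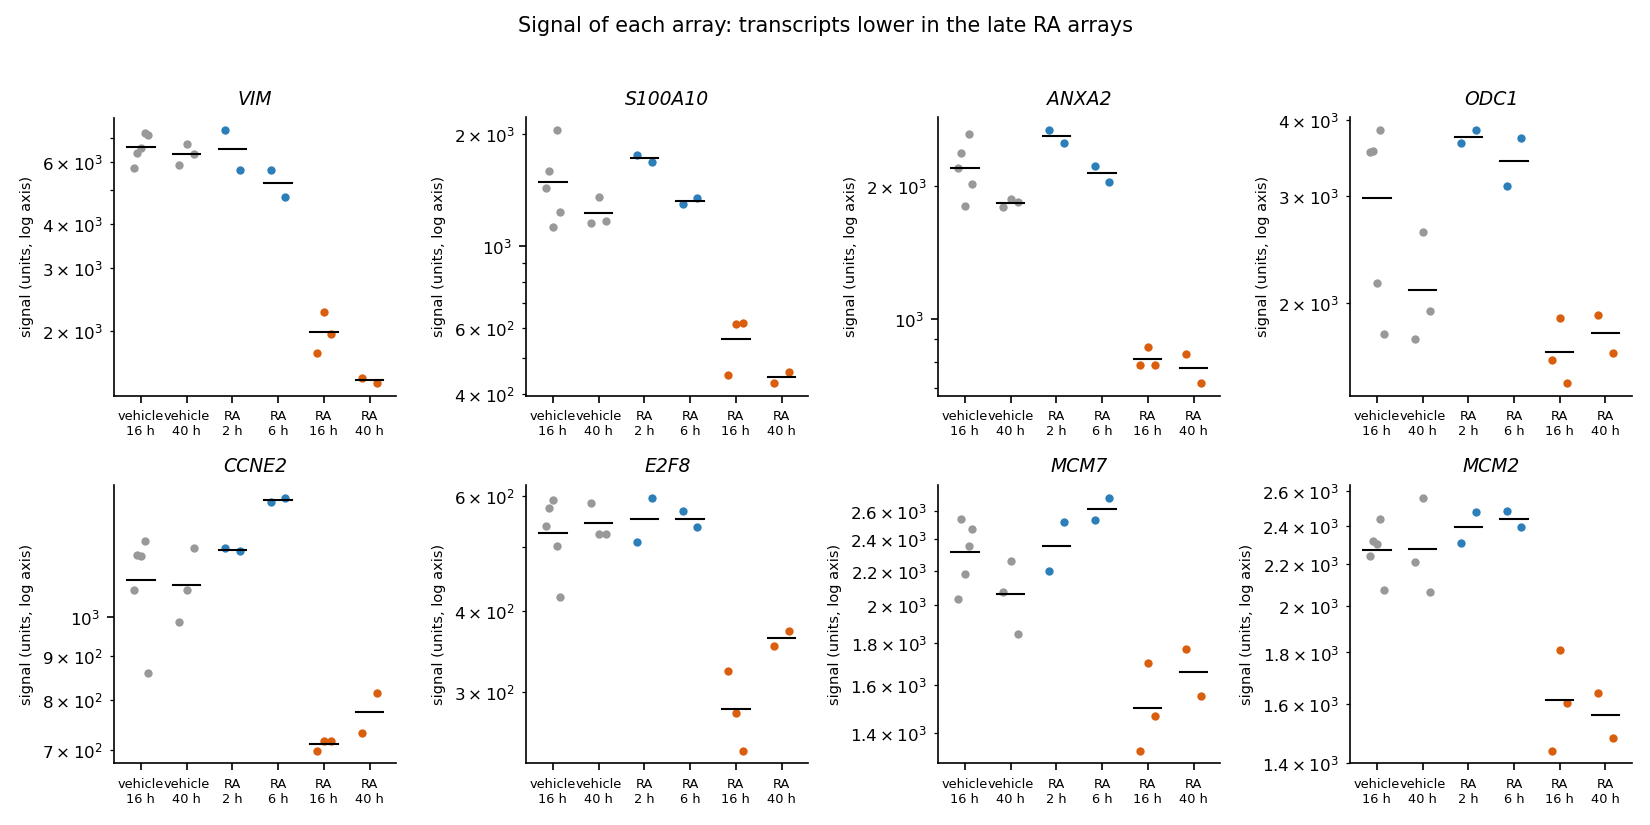
The signal of each array (units, log axis) is plotted for 8 genes in vehicle (grey), early RA (blue) and late RA (orange), with a line at each group mean. VIM, S100A10, ANXA2 and ODC1 (top) and CCNE2, E2F8, MCM7 and MCM2 (bottom) stay high at 2 h and 6 h and are lower in all 5 late arrays.

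E2F factors bind near the start sites of many replication genes, and because these genes moved together their promoters were read. RefSeq promoter windows (GRCh38.p14, 250 bases before to 50 bases after a start, every listed start of a gene) were searched on both strands for TTTCCCGC, TTTCGCGC, TTTGCCGC and TTTGGCGC. A match stood in 16 of the 34 cell cycle genes called lower that had a window. Over the whole cell cycle list, called or not, it stood in 19 of the 44 genes with a window (43.2%). Among genes with a window, a match stood in 6.50% of those tested, 4.53% of those higher and 12.58% of those lower, and in 3.99% of all 27305 genes of the table. By window, it stood in 3.31% of all 35116. The following 40 bases, 5′ to 3′ on the gene's strand with the match in capitals, are from the 6 genes of largest fall with a match wholly before the start, among the matches that could be printed.
CENPA: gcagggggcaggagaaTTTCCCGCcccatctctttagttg
POLA1: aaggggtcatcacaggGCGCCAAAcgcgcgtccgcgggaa
MCM7: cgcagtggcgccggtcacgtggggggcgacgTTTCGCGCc
E2F2: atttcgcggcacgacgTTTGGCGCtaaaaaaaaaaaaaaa
GMNN: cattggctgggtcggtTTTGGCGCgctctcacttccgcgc
UHRF1: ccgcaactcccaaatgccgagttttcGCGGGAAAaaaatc
They lie at chr2:26785808-26785847 (plus strand), chrX:24693765-24693804 (plus), chr7:100101398-100101437 (minus), chr1:23531252-23531291 (minus), chr6:24775317-24775356 (plus) and chr19:4909461-4909500 (plus), in that order. Late minus early differences were -0.69 for CENPA, a centromeric histone, and -0.66 for POLA1, the catalytic subunit of DNA polymerase alpha. They were -0.63 for the transcription factor E2F2, -0.57 for GMNN, which blocks a repeat of replication, and -0.55 for UHRF1, which maintains DNA methylation. A match describes the letters in the window and is no measure of binding.

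Genes of antigen presentation were the list with the largest share of rises, at 17 of 25 tested (7.57% over all genes), with none lower and a median difference of 0.67. With the ACTB covariate 10 were higher, and on the deposited scale 3, against 288 and 232 of all 12508 genes. TAP1, a peptide transporter, read 248 to 430 units early and 494 to 860 late (1.02 ± 0.12). HLA-E read 1463 to 1708 and 2132 to 3044 units (0.77 ± 0.10), and CD74, the invariant chain of class II, 1322 to 1877 and 2336 to 2929 (0.79 ± 0.10). The other CD74 probe set above the filter gave 0.016, and the CD74 call was lost when probe sets were averaged (adjusted p = 0.116). Late and early arrays did not overlap in these 3. The vehicle arrays, from 279 to 877 units for TAP1, overlapped both groups, and the TAP1 call was lost with the ACTB covariate (adjusted p = 0.12). Of 34 interferon response genes 13 were higher and none lower, with a median of 0.52. IFIT3, which binds viral RNA complexes, read 49.3 to 65.1 units early and 160 to 224 late (1.72 ± 0.17, adjusted p = 2.62e-05). OAS1, a sensor of viral double-stranded RNA, read 53.6 to 82.5 and 127 to 201 units (1.17 ± 0.17). Vehicle arrays of IFIT3 ran from 27.9 to 155 units, and all 3 vehicle wells at 40 h lay at 139 units or more, just below the late RA range. With the ACTB covariate 1 of the 34 interferon genes was higher. IFI35 and OAS3 rose by 0.70 ± 0.10 and 0.89 ± 0.16.

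**Figure D5:**
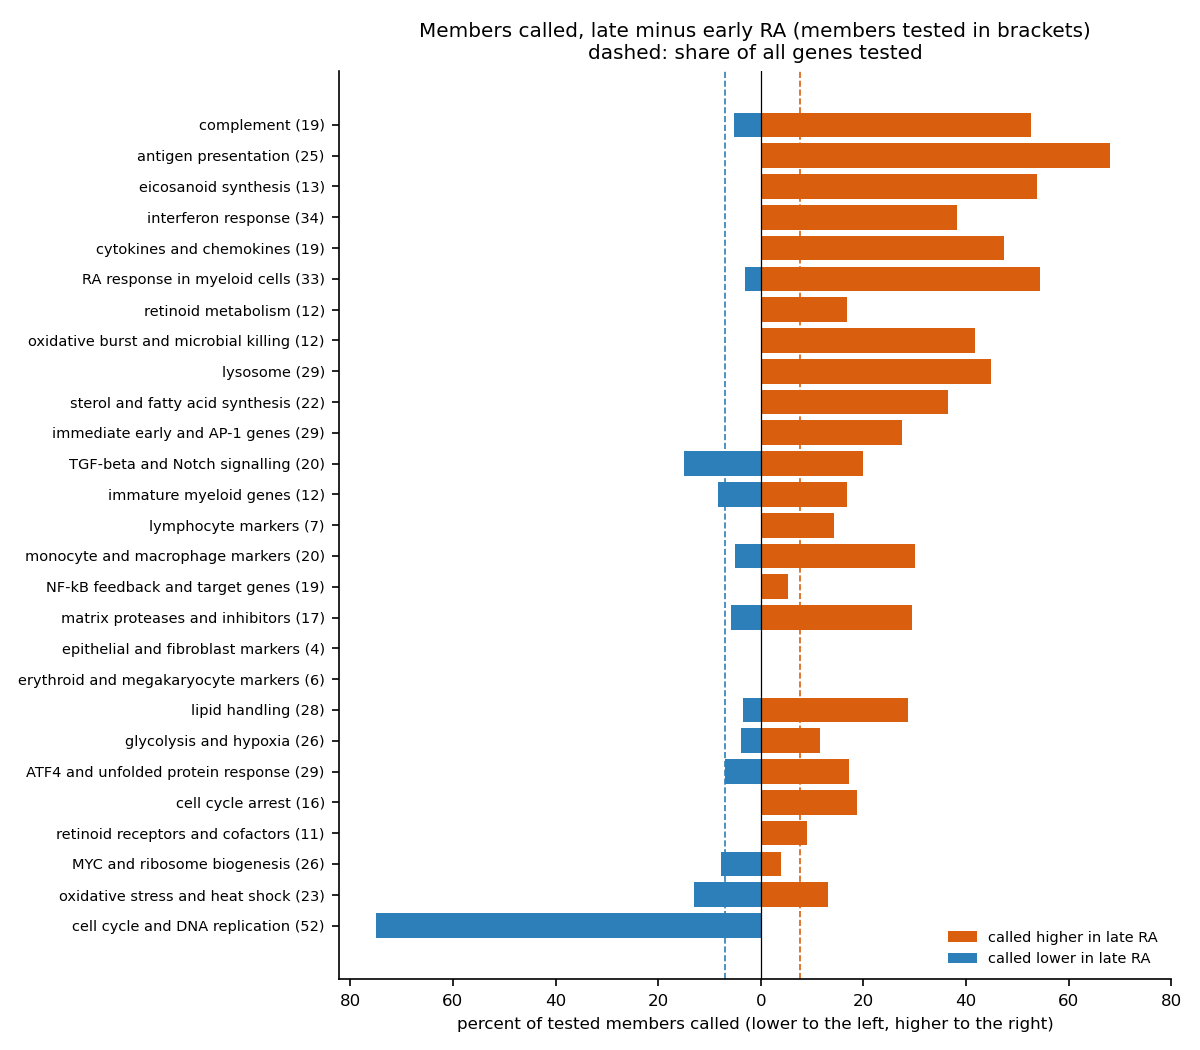
For each of 27 gene lists, bars give the percent of tested members called higher (orange, right) and lower (blue, left) in late against early RA, with the number tested in brackets and lists ordered by median difference. Dashed lines mark the share over all genes, 7.57% higher and 7.08% lower. Cell cycle genes have the largest share lower (75.0%) and antigen presentation genes the largest share higher (68.0%).

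Over all genes tested, 7.57% were higher and 7.08% lower, and 288 of 12508 were higher with the ACTB covariate. Lysosomal genes were higher in 13 of 29, with none lower and a median of 0.34, and 8 were higher with the ACTB covariate. PSAP, the precursor of saposins, read 2490 and 2641 units at 2 h, 3338 and 3449 at 6 h, 5345 to 6540 at 16 h and 7628 and 7985 at 40 h (1.22 ± 0.10, adjusted p = 6.52e-06). CTSD, a lysosomal aspartic protease, read 292 to 457 units early, 552 to 761 at 16 h and 1004 and 1064 at 40 h (1.23 ± 0.11). Vehicle arrays stayed at 1491 to 2497 units for PSAP and 215 to 342 for CTSD. The cathepsins CTSB and CTSS rose by 0.78 ± 0.10 and 0.66 ± 0.09. Eicosanoid genes were higher in 7 of 13, with none lower and a median of 0.61, and in 7 with the ACTB covariate. ALOX5AP, which hands arachidonic acid to 5-lipoxygenase, read 1550 to 3172 units early, 5096 to 6622 late and 872 to 1317 in vehicle (1.46 ± 0.12). PTGS1, a cyclooxygenase, rose by 0.94 ± 0.09, from 473 to 1009 units early to 1216 to 1418 late. LTB4R, a leukotriene receptor, rose by 0.94 ± 0.10.

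Lipid handling genes were higher in 8 of 28 and lower in 1 (28.6% and 3.57%), with a median of 0.12. Over all genes tested, 7.57% were higher and 7.08% lower. G0S2, an inhibitor of triglyceride lipase, read 116 to 164 units early and 406 to 534 late (1.77 ± 0.13), against 148 to 288 in vehicle. PPARG, a fatty acid receptor, read 94.5 to 134 and 237 to 381 units (1.48 ± 0.14), and the scavenger receptor CD36 242 to 292 and 466.3 to 872.5 units (1.25 ± 0.10). NPC2, a lysosomal cholesterol carrier, rose by 0.80 ± 0.09. Sterol and fatty acid synthesis genes were higher in 8 of 22, with none lower and a median of 0.29. On the deposited scale and with the ACTB covariate 0 of 22 were higher, against 232 and 288 of all 12508 genes. SCD, FADS2, FASN and MSMO1 differed by 0.43 to 0.61, and other SCD probe sets by -0.33 to 0.66. FASN, which makes palmitate, read 607 to 651 units early and 722 to 1043 late, and vehicle arrays from 727 to 1236 covered the late values.

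Of 33 genes known to respond to RA in myeloid cells, 18 were higher and 1 lower (median 0.46), and 12 were higher with the ACTB covariate. This list was drawn up with results of these data known. Over all genes tested, 7.57% were higher and 7.08% lower. With the covariate 288 of 12508 were higher and 249 lower, and on the deposited scale 232 were higher. Complement genes were higher in 10 of 19 and lower in 1 (median 0.87), and 3 were higher with the covariate. SERPING1, the C1 inhibitor, read 17.7 to 34.8 units early and 83.8 to 134 late (2.08 ± 0.29), and that call was lost with the covariate. ITGAX and ITGB2, which pair as a complement receptor, rose by 1.32 ± 0.17 and 0.87 ± 0.11. Oxidative burst genes were higher in 5 of 12 with none lower (3 and 1 with the covariate), and NCF4 and CYBA rose by 0.61 ± 0.08 and 0.55 ± 0.14 beside NCF1 and FGR. CYBA was lost without the second 2 h or 6 h well or either 40 h well. Cytokine and chemokine genes were higher in 9 of 19 with none lower (median 0.51), in 4 with the ACTB covariate and in 2 on the deposited scale. CXCL8, which attracts neutrophils, read 159 to 203 units early and 358 to 906 late (1.51 ± 0.16). CCL5 read 1199 to 1729 and 2290 to 3003 units (0.89 ± 0.10), and IL1B and TNFSF13B rose by 1.00 ± 0.20 and 0.68 ± 0.13. The IL1B call was lost in 6 alternatives, with adjusted p from 0.0518 to 0.236. Of 19 NF-kB feedback and target genes, 1 was higher, BCL2A1 (5.26%, near the 7.57% over all genes).

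Monocyte and macrophage markers moved unevenly, with 6 of 20 higher and S100A8 lower (30% and 5%). Over all genes tested, the share for this and the following lists, 7.57% were higher and 7.08% lower. The lectin CD209 read 362 to 558 units early and 822 to 1464 late (1.27 ± 0.12). Its 2 other probe sets above the filter gave 0.08 and 0.64, and the call was lost when probe sets were averaged. CSF1R, the receptor for macrophage colony-stimulating factor, read 382 to 643 and 678 to 912 units (0.77 ± 0.11). CD14 did not pass the test at 22.7 to 54.6 units early and 26.3 to 95.5 late (0.82 ± 0.37, adjusted p = 0.163). Of 12 immature myeloid genes 2 were higher and 1 was lower. The receptor kinase FLT3 read 135 to 334 units early and 501 to 665 late (1.55 ± 0.12), CEBPA rose by 0.43 ± 0.13 and SERPINB10 fell by 0.58 ± 0.15. CEBPA was not called after quantile normalization (adjusted p = 0.0513) or without either 40 h well, the second 2 h or 6 h well, or 16 h wells 2 and 3 in turn. SERPINB10 was lost without either 2 h well, the second 6 h well or the second 40 h well, and TIMP1 without the second 6 h well. Matrix proteases and inhibitors were higher in 5 of 17 and lower in 1, led by MMP2, and TIMP1, an inhibitor of these proteases, rose by 0.40 ± 0.09. In the list of glycolysis and hypoxia 3 of 26 were higher and 1 lower (11.5% and 3.85%, near the shares over all genes). NDRG1, a stress-responsive gene of differentiation, read 996 and 1020 units at 2 h, 1963 and 1939 at 6 h and 2660 to 3290 late, against 303 to 488 in vehicle (1.10 ± 0.08). Oxidative stress and heat shock genes were split, with 3 of 23 higher and 3 lower. The aldo-keto reductases AKR1C1 and AKR1C2 rose by 1.26 ± 0.13 and 1.18 ± 0.12, while GCLM, a subunit of glutathione synthesis, fell by 0.64 ± 0.10. AKR1C1 and AKR1C2 are near-identical in sequence, and probe sets may not separate them. Of 29 genes of the ATF4 and unfolded protein responses 5 were higher and 2 lower (17.2% and 6.9%). Of 26 MYC and ribosome genes 1 was higher and 2 were lower (3.85% and 7.69%, near the shares over all genes). Of 20 TGF-beta and Notch genes 4 and 3 were called (20% and 15%), and of 16 cell cycle arrest genes 3 and 0 (18.8% and 0%). Of 7 lymphocyte markers tested 1 was higher, CD79A (0.79 ± 0.25, adjusted p = 0.0479), which was lost on leaving out any of 8 of the 9 wells, and no erythroid, megakaryocyte, epithelial or fibroblast marker was called.

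A few transcripts were raised early and came down later. ID1, an inhibitor of helix-loop-helix factors, read 167 and 174 units at 2 h, 131 and 134 at 6 h, 52.6 to 92.5 late and 18.5 to 69.1 in vehicle (-1.08 ± 0.21, adjusted p = 0.0035). ZCCHC24 read 498 and 627, then 724 and 730, and 370 to 433 units late, with vehicle at 161 to 315 (-0.66 ± 0.09, adjusted p = 0.000482). DDIT4, which restrains mTOR signalling, read 710 to 1000 units early and 566 to 716 late, above the 160 to 328 of vehicle throughout (-0.39 ± 0.09, adjusted p = 0.0109, lost without the second 2 h or 6 h well). In the fit that took in the vehicle arrays, ID1 and DDIT4 were no longer called (adjusted p = 0.0674 and 0.115). That fit keeps each time-point mean, so their differences could not change. With the ACTB covariate added, the differences were -0.36 for ID1, -0.42 for ZCCHC24 and -0.19 for DDIT4, none of them called. Transcripts that were lowest in the early arrays formed the mirror image. KLF6, a zinc finger factor, read 100.3 to 182 units early, 205 to 274 late and 199 to 345 in vehicle (0.85 ± 0.14, adjusted p = 0.00154). Its 3 other probe sets above the filter gave -0.51 to 0.42. FOSL2, an AP-1 subunit, read 168 to 192 units early, 206 to 260 late and 338 to 503 in vehicle (0.37 ± 0.12, adjusted p = 0.0492), and this call was lost in 8 of 9 fits that left out a well. MYC, which drives growth, read 812 to 1075 units early, 1052 to 1614 late and 1580 to 2072 in vehicle (0.41 ± 0.11, adjusted p = 0.0217), and its late and early arrays overlapped. The MYC call was lost without the second 2 h well, the first 6 h well or the first 40 h well. ID2 rose by 0.68 ± 0.08, from 1380 to 1553 units early to 2041 to 2534 late. Over all genes tested, 7.57% were higher and 7.08% lower, and 288 of 12508 were higher with the ACTB covariate. On the deposited scale 232 were higher and 2955 lower. Immediate early and AP-1 genes were higher in 8 of 29 with none lower, against 4 higher with the ACTB covariate and 2 higher and 3 lower on the deposited scale. They were led by DUSP6, a phosphatase of ERK (734 to 1147 units early, 1600 to 2145 late, 1.06 ± 0.09), KLF10 (0.95 ± 0.10) and the antiproliferative BTG1 (0.66 ± 0.09). EGR1 (0.29 ± 0.13, adjusted p = 0.153) and FOS (0.32 ± 0.14, adjusted p = 0.15) did not pass. ID1, ZCCHC24, DDIT4, KLF6, FOSL2, ID2, FGR, POR and LRG1 were chosen for description after their values were seen.

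Retinoid metabolism genes were higher in 2 of 12, DHRS3 and the related enzyme DHRS9 (0.46 ± 0.12, adjusted p = 0.0243). Of 11 receptor and cofactor genes 1 was higher, PNRC1 (0.40 ± 0.12), a share of 9.09%, near the 7.57% over all genes. The DHRS9 call was lost in 5 and the PNRC1 call in 7 of the 9 fits that left out a well, and both were lost with the ACTB covariate (PNRC1 also in the same fit without it). CYP26A1, which clears RA by hydroxylation, was dim throughout. It read 4.8 to 20.3 units early, 8.7 to 93.1 late and 2.2 to 16.5 in vehicle (2.06 ± 0.76, adjusted p = 0.0887). CYP26B1 read 5.4 and 8.5 units at 2 h, 63.4 and 61.0 at 6 h and 6.6 to 40.6 late, and did not pass the test (-0.00 ± 0.68, adjusted p = 0.998). RARA, an RA receptor, gave -0.31 ± 0.13 (adjusted p = 0.148) and CEBPE -0.19 ± 0.29 (adjusted p = 0.715). RARB, another RA receptor, averaged 19.8 units over the 9 arrays and fell below the filter.

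RARB is the textbook case of a promoter with a direct repeat bound by RA receptors, so the promoter windows were also searched for such repeats. The first half-site searched was AGGTCA, the next was GGGTCA, then came AGTTCA and the last was GGTTCA. Any of these 4 half-sites were paired in the same orientation with 1, 2 or 5 bases between, on both strands. A repeat with 5 bases between stood in 0.0880% of all windows. Of 772 higher genes with a window 2 had such a repeat, BATF2 and CFLAR, and of 755 lower genes none did, against 8 of 10163 genes tested. CFLAR's match, which crosses the start, belongs to an inhibitor of death receptor signalling that differed by 0.48. Of the 18 genes followed, RARB and CYP26A1 held a repeat of any of these spacings, and HIC1, TGM2 and MYC had no window in the table. The 80 bases around the 3 matches before a start, 5′ to 3′ on the gene's strand with the match in capitals, show the spacing.
RARB: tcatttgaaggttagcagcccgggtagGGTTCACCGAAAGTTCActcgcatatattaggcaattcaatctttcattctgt
CYP26A1: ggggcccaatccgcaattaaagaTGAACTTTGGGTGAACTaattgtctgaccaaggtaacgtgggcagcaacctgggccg
BATF2: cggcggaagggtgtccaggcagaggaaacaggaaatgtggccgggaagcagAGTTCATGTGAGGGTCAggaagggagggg
They lie at chr3:25428183-25428262 (plus strand), chr10:93073780-93073859 (plus) and chr11:64990278-64990357 (minus). The CYP26A1 repeat reads on the opposite strand to the gene. BATF2, a basic leucine zipper factor of myeloid cells, was among the 73 genes above vehicle from 2 h on. It read 165 and 159 units at 2 h, 394 and 278 at 6 h, 343, 375 and 442 at 16 h and 366 and 331 at 40 h, against 18.9 to 86.3 in vehicle. Late and early arrays overlapped, and the difference was 0.66 ± 0.13 (adjusted p = 0.00367). BATF2 was singled out by the repeat after its values were seen. The BATF2 call was lost in the fit that took in the vehicle arrays (0.66, adjusted p = 0.133), and with the ACTB covariate added the difference was 0.12 (adjusted p = 0.887).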

How the data were processed

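RNA was hybridised to Affymetrix arrays of the HG-U133 Plus 2 design. Signals came from GCOS, per the submitters' processing notes, with settings not given in the sources used here. As read from the values, the deposited values are log2 values centred by the authors on each array's median. GCOS signals were recovered by undoing the log and setting the lowest value of an array to 1 unit, and 100% of signals under 8 units were then multiples of 0.1 units within 0.005. Their trimmed mean (2% at each end) was 150.0 to 150.1 units on all 9 arrays. The fit used log2 of these signals, because the array median differs between early and late arrays. The precision is limited by the number of arrays, and depth is read only from signal over background.

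Probe sets (54675, 62 of them controls) were named from GEO's platform annotation: 41091 had 1 symbol, 1801 several and 11777 none, and 41037 matched the reference gene table. A gene took its probe set of highest mean over 33 arrays (19775 genes). Genes with a mean under 24.1 units over the 9 arrays, the median of all probe sets, were removed, which left 12508. limma 3.58.1 (R 4.3.3, data.table package 1.17.8) fitted 4 time-point means (5 residual degrees of freedom, eBayes with trend); all adjusted p-values for genes are from it. Python 3.11.15 ran the permutation tests and promoter searches. In data simulated for late minus early, 74% of 2-fold and 90% of 4-fold changes among 12508 genes were called, with 6 false calls. The simulation changed 200 genes, drew independent noise around the mean of each gene and held no array effect. It does not address false calls from differences in 3' to 5' ratio or signal level.

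The 12 largest rises and falls were named among genes called on the main, deposited and quantile normalized scales with at least 200 units in the higher group, with 4 each way per step, up to 4 members of each of 27 lists (737 entries, 563 tested) by smallest adjusted p, and 18 genes followed throughout. Genes beside a printed sequence were chosen by it, and none on chromosome 8 is printed. The groups compared, the genes and the lists were chosen with earlier results of these data known. Lists are described by counts and medians, with no list test. Array qualities were compared by two-sided exact permutation tests. Alternatives changed the scale, filter, probe sets, model, arrays in the fit and blocks, and left out each array in turn. The other 16 arrays, with TNF or of the first experiment alone, were not analysed here beyond the choice of probe set.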

Additional observations from a re-analysis of the deposited data

Results flagged for a closer look

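In 4 of the gene and group pairs examined, an array of the late group stood apart from the other 4 by the Dixon test at its 95% level, out of 230 pairs of a gene with the early or late group; chance flags about 5% of such groups. MAP3K20 read 271.2 units in the first 16 h well, the highest late value, against 185.5 in the next. BTG1 read 991.9 units in the same well, the lowest late value, against 1213.5. TRIB3 read 926.7 units in the first 40 h well, the highest, against 806.2. CD14 read 26.3 units in the second 16 h well, the lowest, against 67.6.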

How the results depend on the processing

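Whether the replicate numbers pair the wells could not be decided. Deviations of wells with the same number at 2 h, 6 h and 16 h correlated at 0.0409 to 0.118 over genes. The deviations of 2 wells of a time mirror each other, and no reference for unpaired wells was computed. The 40 h wells share no number with the other wells. With the order of record numbers as a block, 1106 genes were higher and 1001 lower late. With the replicate number as a block in a fit of 2 groups, only the first and second 16 h wells stood for the late group. The third 16 h well and both 40 h wells, whose numbers occurred once, did not inform the difference. In that fit 500 genes were higher and 609 lower, and 20 of the 24 genes of largest change were still called. The values as deposited gave 232 higher and 2955 lower genes late against early, 3 lower at 6 h against 2 h, 88 higher and 3586 lower at 16 h against 6 h, and 25 higher and 4 lower at 40 h against 16 h, since that scale moves all genes. Averaging the probe sets of a gene gave 512 and 487 (16 of the 24 kept). Late against early gave 499 higher and 371 lower with the 40 h wells alone, 584 lower against 2 h alone, and 304 and 311 against 6 h alone. The ACTB covariate gave 288 and 249. With 17 arrays, 41 genes were higher at 6 h against 2 h, 114 higher and 159 lower at 16 h against 6 h, and 0 higher and 1 lower at 40 h against 16 h. Leaving out each array in turn gave 532 to 944 higher and 439 to 948 lower late, 37 to 85 and 0 to 12 at 6 h against 2 h, 27 to 217 and 10 to 324 at 16 h against 6 h, 0 to 1 and 0 to 1 at 40 h against 16 h, and 0 to 2 and 0 to 0 in vehicle. The 24 genes kept their call in all 9 such fits.

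Late minus early differences that turned sign follow, none of them called after turning. On deposited values they were ADAM17 (-0.050), NRIP1 (-0.32), EGR1 (-0.070) and FOS (-0.045). With averaged probe sets they were WDR90 (0.23), S100A8 (0.27), RARA (0.12), SKIL (0.11) and CYP26B1 (0.54). CYP26B1 was 0.33 with the order of record numbers as a block, 0.31 with 40 h alone, 1.60 against 2 h alone and -0.34 to 0.33 on leaving out an array. CEBPE was 0.12 with 40 h alone and 0.15 against 2 h alone. NRIP1 was -0.12 with 16 h alone, -0.18 against 6 h alone and -0.020 to 0.11 on leaving out an array. FGR was -0.038 and POR -0.084 against 6 h alone, and CCNG2 was -0.047 with the ACTB covariate. Over all genes named and settings, 2646 differences kept direction and call, 355 lost the call, 7 gained it and 26 turned. The differences that kept both include outcomes that could not change. Adding the vehicle arrays without the ACTB covariate, dropping the filter or making it stricter left every difference as it was. Only the call could change there. Genes of largest change were named only if called on the deposited and quantile normalized scales, so their calls on those scales were fixed by that choice. Apart from settings that use fewer arrays or move all genes, the cause of the lost, gained or turned differences was not tested. Signals near 1 unit, as for KCNE1, CYP26A1 and CYP26B1, limit the size of those differences.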
